A study of Mus musculus with 7 samples.

Results

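Magi1, Pde1c, Utrn, Ppm1h and Pdlim5 are 5 long mouse genes that were picked for the number of open-chromatin regions seen at them after RANKL. A peak was assigned to one of them when its midpoint lay inside the gene, or within 100 kb with that gene as the nearest protein-coding one. This gave 1166 of 975394 peaks over 7 libraries, which joined into 403 of 344401 regions, at 5 of 21887 protein-coding genes. Because the genes were chosen on RANKL against untreated cells, every value of that contrast is given as a description and is not tested.

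The peaks come from ATAC-seq, which maps accessible DNA by letting a transposase insert sequencing adapters into it, on RAW264.7 cells. RAW264.7 is a mouse macrophage-like line that can become osteoclasts, which resorb bone, and the labels name the cell line and also give bone marrow as the source. Of the 4 groups, RANKL+I-BET (2 libraries) had 50 ng/ml RANKL and 500 nM I-BET for 4 h, RANKL (2 libraries) had 50 ng/ml for 4 h, I-BET (1 library, numbered 2) had 500 nM for 4 h, and untreated cells (2 libraries) had neither agent, with no time stated. All groups are the same line, with no genetic change named, and nothing says that the replicates were separate cultures, so their spread may be technical.

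RANKL is the cytokine that starts osteoclast development through its receptor RANK. I-BET blocks the pockets by which BET proteins read acetylated histones at enhancers and promoters. Introns of long genes can hold many distal regulatory elements, and such an element may act on its host gene or on another, which peak positions do not tell. The products of the 5 genes have no single pathway in common. Magi1 encodes a scaffold with PDZ domains at cell junctions. Pde1c encodes a calcium- and calmodulin-dependent phosphodiesterase that breaks down cyclic AMP and cyclic GMP. Utrn encodes utrophin, the relative of dystrophin that ties actin to the dystroglycan complex at the membrane. Ppm1h encodes a serine/threonine phosphatase that acts on Rab GTPases. Pdlim5 encodes a PDZ and LIM domain protein that holds protein kinase C and other partners at actin filaments.

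The libraries differed in ways that touch every count. Lists held 117175 to 166369 peaks, and read depth is unknown. The background pileup that the authors' fold values imply, a stand-in for depth, ran from 1.11 (I-BET) to 13.8 (RANKL+I-BET replicate 2). Regions found in a single list made up 42.9% of those of untreated replicate 1 and 8.95% to 27.1% of those of the other 6 libraries, so counts of regions against untreated cells are given with and without it. All 10 macrophage marker genes and all 8 osteoclast precursor marker genes had a peak within 1 kb of a gene end in every library. Such peaks were also present at 2 to 5 of 5 B lymphocyte, 3 to 4 of 6 T lymphocyte, 1 to 4 of 6 fibroblast and osteoblast and 2 to 3 of 6 granulocyte and erythroid genes, beside 62.6% to 66.6% of all genes.

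The RefSeq start windows of these genes are shown first because calls over them differ. They are not matched positions: some lie at or near the annotated start of the gene and others at start sites far inside it. The 300-base windows are RefSeq promoters of build GRCm38.p6, printed 5′ to 3′ on the strand of the gene, and capitals mark the bases that lie inside a called region. The Utrn window, chr10:12861686-12861985 on the minus strand, has its start site 8.15 kb inside the annotated gene and is the promoter window that a RANKL-only region reaches. A RANKL-only region is one called in both RANKL libraries and absent from both untreated lists. The Ppm1h window, chr10:122678512-122678811 on the plus strand, and the Pdlim5 window, chr3:142395647-142395946 on the minus strand, lie wholly in regions called in all 7 libraries. The Pde1c window, chr6:56369585-56369884 on the minus strand, has its start site 283 kb inside the gene and overlapped no peak of any library.
Utrn: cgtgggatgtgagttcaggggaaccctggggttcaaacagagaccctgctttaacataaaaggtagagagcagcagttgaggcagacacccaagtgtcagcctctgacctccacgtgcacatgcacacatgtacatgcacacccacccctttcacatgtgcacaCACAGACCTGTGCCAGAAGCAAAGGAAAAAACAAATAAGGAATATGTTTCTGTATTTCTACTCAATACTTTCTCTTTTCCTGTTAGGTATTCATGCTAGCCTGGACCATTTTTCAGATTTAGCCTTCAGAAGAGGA
Ppm1h: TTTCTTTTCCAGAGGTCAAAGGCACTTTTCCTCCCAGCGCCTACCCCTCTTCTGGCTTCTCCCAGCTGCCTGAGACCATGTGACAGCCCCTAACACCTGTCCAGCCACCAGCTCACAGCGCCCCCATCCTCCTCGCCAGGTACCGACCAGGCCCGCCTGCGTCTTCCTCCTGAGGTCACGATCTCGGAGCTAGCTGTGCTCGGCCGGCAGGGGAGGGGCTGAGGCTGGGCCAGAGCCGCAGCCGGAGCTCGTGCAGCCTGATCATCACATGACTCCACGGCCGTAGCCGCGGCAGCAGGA
Pdlim5: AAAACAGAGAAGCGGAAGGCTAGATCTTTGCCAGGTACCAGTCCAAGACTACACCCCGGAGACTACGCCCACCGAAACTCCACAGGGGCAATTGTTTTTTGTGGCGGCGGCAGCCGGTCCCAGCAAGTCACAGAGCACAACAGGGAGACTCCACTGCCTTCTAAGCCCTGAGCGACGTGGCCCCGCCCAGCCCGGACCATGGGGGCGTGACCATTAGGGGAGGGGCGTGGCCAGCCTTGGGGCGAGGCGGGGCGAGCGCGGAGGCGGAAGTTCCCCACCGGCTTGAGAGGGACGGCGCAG
Pde1c: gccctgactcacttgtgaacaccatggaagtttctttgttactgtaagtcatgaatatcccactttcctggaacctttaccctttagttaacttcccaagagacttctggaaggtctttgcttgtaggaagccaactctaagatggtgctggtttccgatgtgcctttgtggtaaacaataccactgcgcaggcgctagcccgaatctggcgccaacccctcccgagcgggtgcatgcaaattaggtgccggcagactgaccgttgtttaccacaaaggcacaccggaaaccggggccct

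In the Utrn window 136 of 300 bases lay in the RANKL-only region chr10:12861358-12861821, which spans the start site at 12861735. The summit lay 5 bp from that start site in the second RANKL+I-BET library, 27 bp in RANKL replicate 2 and 311 bp in RANKL replicate 1, whose peak did not reach the window. The -log10 p was 16.2 in the second RANKL+I-BET library and 3.99 and 7.42 in RANKL, with no peak in RANKL+I-BET replicate 1, I-BET or untreated cells. A peak overlapping the window itself was present in 2 libraries, the RANKL+I-BET and RANKL libraries numbered 2. The windows also differed in base composition: Ppm1h and Pdlim5 both had 64.7% G+C with 17 and 22 CpG dinucleotides, Pde1c had 51.3% with 11, and Utrn had 46% with 2. Magi1 has 2 windows in the table, with start sites 370 and 371 kb inside the gene, 1 of which held 44 bases of a region called in the I-BET library alone. The other 2 windows of Pde1c and a second Pdlim5 window overlapped no peak of any library.

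Short motifs were searched on both strands of these 9 windows, with positions counted from the start site. The letters were TGANTCA for AP-1 (in 7.81% of 32851 RefSeq promoters), CACGTG for an E-box (7.15%), GGGCGG for a GC box (35.7%) and TGACGTCA for a cyclic AMP response element (1.79%), and none of these contains another. The Utrn window held 1 E-box at -139, outside the called part. The Pde1c window above held 1 AP-1 match at -246. Pdlim5 had 1 GC box match inside its called region, and 1 Magi1 window had 2 GC box matches. A match is a stretch of letters and not a shown binding site.

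Counting regions called per 100000 peaks of a list allows for list length. Magi1 averaged 37.6 in RANKL+I-BET, 37 in RANKL, 29.3 in the single I-BET library and 27.7 in untreated cells. Ppm1h averaged 31, 33.5, 28.6 and 30.4 in the same order of groups, and Utrn 28.4, 28.6, 21 and 21.2. Pdlim5 averaged 16.4, 15.6, 11.9 and 9.33, and Pde1c 8.7, 10.1, 8.38 and 4.21. Per 100 kb of gene body, the whole set of regions was densest in Ppm1h (37.3), then Pdlim5 (17.9), Magi1 (17.1), Utrn (12.1) and Pde1c (7.04), beside a median of 11.5 over the 1378 genes at least as long as Pdlim5. In single libraries, peaks per 100 kb of gene body ran from 13 to 20.1 in Ppm1h, 4.48 to 13.4 in Pdlim5, 4.93 to 9.37 in Magi1, 4.51 to 8.82 in Utrn and 0.515 to 2.75 in Pde1c. Pde1c thus stayed below the other 4 genes in every library, while the ranges of Magi1, Utrn and Pdlim5 overlapped. In bulk samples such as these, a region open in fewer cells and one less open in each cell cannot be told apart.

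**Figure D1:**
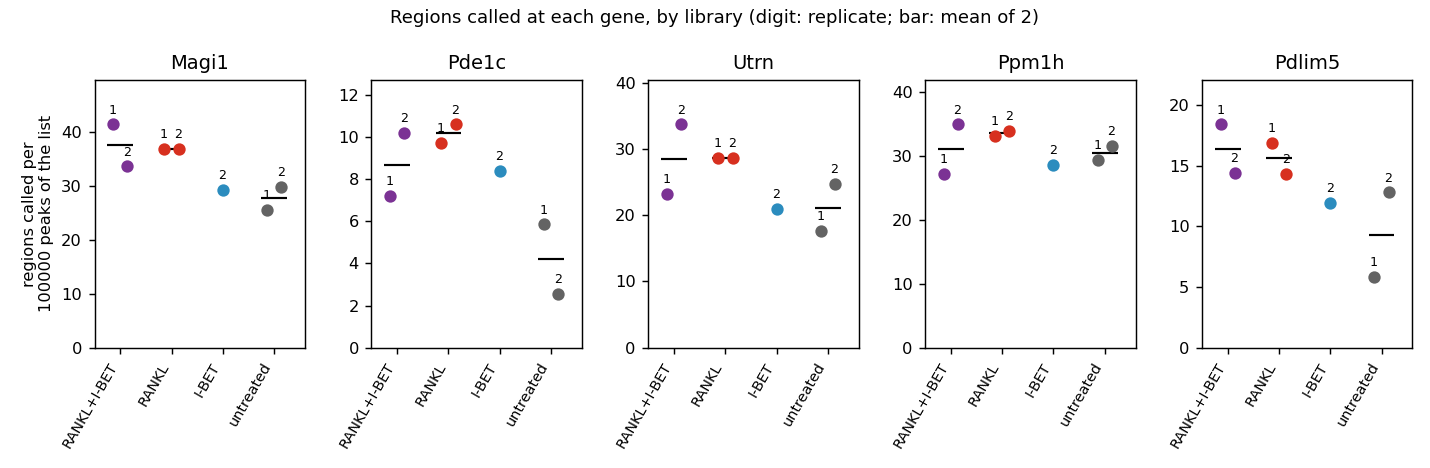
Regions called per 100000 peaks of the list (y axis) in each library at each gene; dots are libraries, digits their replicate numbers and bars the mean of 2 libraries. The RANKL dots lie above the untreated dots at all 5 genes, by the least at Ppm1h (means 33.5 and 30.4), while the RANKL+I-BET dots lie among or on either side of the RANKL dots.

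Every RANKL library lay above every untreated library at all 5 genes, which is also true of 15.7% of 1052 long genes with at least 20 regions. The ratio of the RANKL to the untreated mean was 1.33 at Magi1, 2.41 at Pde1c, 1.35 at Utrn, 1.1 at Ppm1h and 1.67 at Pdlim5, beside a median of 1.07 over those long genes. Against untreated replicate 2 alone it was 1.24, 3.96, 1.16, 1.06 and 1.22, without a median over the long genes to set beside these. With I-BET added to RANKL the ratio to RANKL was 1.02, 0.858, 0.993, 0.925 and 1.05 in the same order of genes, beside a median of 0.981. At none of the 5 did both RANKL+I-BET libraries lie above both RANKL libraries (9.41% of the long genes). RANKL+I-BET against untreated, which shares the untreated libraries with the first contrast, gave 1.36, 2.07, 1.34, 1.02 and 1.76, and the libraries did not overlap at Magi1, Pde1c and Pdlim5 (17.1% of the long genes). Without untreated replicate 1 these ratios were 1.26, 3.4, 1.15, 0.982 and 1.28. I-BET against untreated gave 1.06, 1.99, 0.991, 0.942 and 1.27, with the 1 I-BET library above both untreated libraries at Pde1c (33.9% of the long genes). Without untreated replicate 1 they were 0.982, 3.27, 0.847, 0.907 and 0.928, so at Magi1 and Pdlim5 the direction turned. With 2 libraries against 2 the smallest two-sided exact permutation p is 0.333, so no p was computed.

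Calls were sorted by treatment in the same way for every region. Over the 5 genes, 37 of 300 regions called in RANKL or untreated cells were RANKL-only (3.37% of all such regions), and 0 were untreated-only, called in both untreated libraries and neither RANKL one (0.748%). Magi1 had 10 RANKL-only regions, Pde1c 6, Utrn 8, Ppm1h 9 and Pdlim5 4. Since these counts chose the genes, they are not evidence about them. At least 1 RANKL-only region lay at 23.7% of all genes and 62.8% of genes as long as Pdlim5, and 4 or more lay at 152 of these long genes. Mixed regions, with 1 RANKL and 1 untreated call, numbered 3 at Magi1, 0 at Pde1c, 2 at Utrn, 4 at Ppm1h and 0 at Pdlim5. Over all regions 21639 of 255311 were mixed, beside 8594 RANKL-only and 1910 untreated-only.

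The counts depend on single libraries. Asking for fewer calls raised the 37 to 66 when RANKL replicate 1 was left out, to 94 when RANKL replicate 2 was and to 74 when untreated replicate 2 was, and it gave 38 without untreated replicate 1. The untreated-only count was 54 without untreated replicate 2, 19 without untreated replicate 1 and 1 without RANKL replicate 1. Within number 1, 133 regions of the 5 genes were called in RANKL and not in untreated, and 55 in untreated and not in RANKL. Within number 2 the counts were 68 and 22. Over all regions they were 82076 and 67401 within number 1, and 38316 and 22976 within number 2.

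Magi1, on the minus strand at chr6:93675453-94283929 on mm10, had 125 regions, 104 of them inside its 608 kb. It had 56 and 59 peaks in RANKL+I-BET, 60 and 53 in RANKL, 47 in I-BET and 37 and 39 in untreated cells. The 4 libraries with RANKL had more peaks than the 3 without it. The I-BET library had more than either untreated one in number, but per 100000 list peaks its 29.3 regions lay between the untreated 25.6 and 29.9. The median gap between neighbouring peaks was 7.13 and 5.48 kb in RANKL+I-BET, 4.8 and 6.59 kb in RANKL, 7.45 kb in I-BET and 10.9 and 8.57 kb in untreated cells. With peaks of -log10 q 5 or more it was 11.9 and 7.8 kb, 9.07 and 7.86 kb, 12.5 kb, and 22.3 and 12 kb in the same order. All 10 RANKL-only regions lay inside the gene, 8 of them nearer to its start than to its end, and 6 fell within 65.3 kb at chr6:94140050-94205375. Most regions called in all 7 libraries inside Magi1 were likewise nearer to its start, so this side is not particular to the RANKL-only ones. The region at its annotated start, chr6:94282435-94285201, was called in all 7 libraries.

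The clearest RANKL-only region of Magi1 was chr6:94165800-94166598, 118 kb into the gene. Its largest peak had a -log10 p of 25.8 and 57.7 in RANKL+I-BET, 24.1 and 11.1 in RANKL, and no peak in I-BET or untreated cells. These -log10 values are the authors', grow with depth and rank peaks only inside 1 list. The summits in both RANKL libraries and RANKL+I-BET replicate 1 lay within 3 bp of each other. The next, chr6:94204835-94205375 at 78.8 kb, had values of 11.2 and 50.7 in RANKL+I-BET and 8.5 and 10.1 in RANKL, again with no peak in the other 3 libraries. Of the 10 regions, 5 had this pattern of calls in all 4 libraries with RANKL and none in the 3 without it. Over the 5 genes 9 of 37 RANKL-only regions had it (24.3%), beside 1823 of all 8594 (21.2%).

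Pde1c, on the minus strand at chr6:56069798-56652510, had 44 regions, 41 of them inside its 583 kb, the sparsest body of the 5. It had 9 and 17 peaks in RANKL+I-BET, 16 and 14 in RANKL, 12 in I-BET and 8 and 3 in untreated cells. Untreated cells had the fewest peaks, and the RANKL+I-BET libraries stood apart, replicate 1 being close to untreated replicate 1. The median gap between neighbouring peaks was 17.7 and 13.4 kb in RANKL+I-BET and 13.9 and 13 kb in RANKL. It was 13.9 kb in I-BET and 18.4 and 205 kb in untreated cells, the last from 3 peaks. With peaks of -log10 q 5 or more, Pde1c had 1 and 12 in RANKL+I-BET and 4 and 4 in RANKL. It then had 0 in I-BET and 0 and 2 in untreated cells. With lists of equal length the median gap was 7.27 and 24.8 kb in RANKL+I-BET and 14.8 and 14.6 kb in RANKL. In I-BET it became 28.4 kb, and in untreated cells 17.8 and 205 kb. All 6 RANKL-only regions lay between 34.8 and 216 kb from the gene start, with none beyond. Most of the 44 regions of any class also lay no farther into the gene than this. Only 1 region was called in all 7 libraries, chr6:56568543-56569494, with a -log10 p of 13.7 and 68.8 in RANKL+I-BET, 15.7 and 21.6 in RANKL, 6.53 in I-BET and 4.82 and 19.5 in untreated cells. It lies 83.5 kb into the gene, so no region at the gene's start was shared by all libraries. RANKL-only regions of Pde1c lay a median 64.2 kb from it, beside 11.3 kb from the nearest region of all 7 libraries over all RANKL-only regions.

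The Pde1c regions were calls of middle or lower rank in the RANKL lists. At chr6:56480788-56481415 the -log10 p was 10.1 in the second RANKL+I-BET library and 6.43 and 6.58 in RANKL. At chr6:56554138-56554586 it was 31.2 in the second RANKL+I-BET library and 6.43 and 8.29 in RANKL. Neither was called in RANKL+I-BET replicate 1, I-BET or untreated cells. Across the 6 regions the percentile within the list ran from 41.8 to 62.3 in RANKL replicate 1 and from 16.1 to 51.2 in RANKL replicate 2. Low ranks were not particular to Pde1c. In replicate 1 the range was 13.8 to 78.8 at Magi1, 34.1 to 68.2 at Utrn, 24.4 to 68.2 at Ppm1h and 60.3 to 79.2 at Pdlim5. In replicate 2 it was 16.1 to 58.1, 25.6 to 61.5, 6.69 to 59.9 and 33.6 to 58.1 in the same order. The highest ranks at Pde1c were below those of the other genes.

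Utrn, on the minus strand at chr10:12382187-12869888, had 79 regions, 59 of them inside its 488 kb. It had 32 and 57 peaks in RANKL+I-BET, 47 and 40 in RANKL, 36 in I-BET and 26 and 31 in untreated cells. The RANKL+I-BET libraries lay on either side of the RANKL ones, with replicate 2, the library of the highest background pileup, at the top. The median gap between neighbouring peaks was 9.67 and 4.48 kb in RANKL+I-BET and 5.55 and 5.42 kb in RANKL. It was 6.82 kb in I-BET and 6.58 and 9.11 kb in untreated cells, so RANKL+I-BET replicate 1 had the widest. With peaks of -log10 q 5 or more it was 9.18 and 5.62 kb, 8.33 and 8.34 kb, 20.3 kb, and 21.1 and 9.79 kb in the same order. The 8 RANKL-only regions of Utrn had a median gap of 47.4 kb, and 4 of them fell within 89.4 kb around the gene start. The clearest, chr10:12888290-12888810, lay 18.7 kb outside the gene beyond its start. Its -log10 p was 9.63 and 54.2 in RANKL+I-BET, 11.5 and 13 in RANKL and 2.99 in I-BET, with no peak in untreated cells. A second, chr10:12315126-12315585, lay 66.8 kb beyond the other end and had 24.7 in the second RANKL+I-BET library, 9.23 and 9.19 in RANKL and 5.57 in I-BET, without a peak in RANKL+I-BET replicate 1 or untreated cells. The region at the annotated start, chr10:12866722-12869832, was called in all 7 libraries.

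Ppm1h, on the plus strand at chr10:122677428-122945795, had 117 regions, 100 of them inside its 268 kb, and 17 were called in all 7 libraries. It had 38 and 60 peaks in RANKL+I-BET, 54 and 49 in RANKL, 48 in I-BET and 42 and 40 in untreated cells. These counts differed least between treatments, and the RANKL+I-BET pair spanned all the other libraries. The median gap between neighbouring peaks was 4.89 and 3.07 kb in RANKL+I-BET, 3.82 and 4.51 kb in RANKL, 2.65 kb in I-BET and 6.53 and 4.62 kb in untreated cells. With peaks of -log10 q 5 or more it was 7.04 and 4.47 kb, 8.13 and 6.41 kb, 7.71 kb, and 12.2 and 5.97 kb in the same order. With lists of equal length it was 4.89 and 4.56 kb, 5.09 and 4.75 kb, 2.82 kb, and 8.76 and 4.62 kb. The I-BET gap was thus the shortest in the full and the equal-length lists but not with the stricter q, and the reason was not tested. Its 9 RANKL-only regions lay a median of 3.78 kb from a region called in all 7 libraries. Those shared regions were themselves closely spaced at Ppm1h, with a median gap of 7.93 kb. Of the 9 RANKL-only regions, 5 fell within 76.1 kb toward and past the gene's end, at chr10:122890899-122966962. At chr10:122686767-122687356, 9.63 kb from the start, the -log10 p was 5.42 and 26.8 in RANKL+I-BET and 11.5 and 10.1 in RANKL, with no peak in I-BET or untreated cells. At chr10:122966416-122966962, 20.9 kb past the gene's end, it was 5.42 and 29 in RANKL+I-BET, 9.23 and 8.29 in RANKL and 3.79 in I-BET, with none in untreated cells. The highest ranked shared region was chr10:122893502-122896823, 218 kb into the gene.

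Pdlim5, on the minus strand at chr3:142239585-142395719, had 38 regions, 28 of them inside its 156 kb. It had 24 and 24 peaks in RANKL+I-BET, 27 and 19 in RANKL, 19 in I-BET and 8 and 15 in untreated cells. All 4 libraries with RANKL had more peaks than the untreated ones, and untreated replicate 1 had the fewest. The I-BET library lay between the untreated libraries in regions per 100000 list peaks (11.9, against 5.85 and 12.8) and among peaks with a -log10 q of 5 or more (9, against 1 and 10). It lay above both in peaks per 100000 list peaks (13.3, against 5.85 and 12.8). With lists of equal length it was also above both (18 peaks, against 7 and 15), so its place depends on the measure. The median gap between neighbouring peaks was 6.75 and 6.42 kb in RANKL+I-BET and 3.52 and 7.29 kb in RANKL. It was 5.1 kb in I-BET and 7.71 and 11.9 kb in untreated cells. Of the 4 RANKL-only regions of Pdlim5, 2 lay inside the gene and 2 lay 42.4 and 44.1 kb before its start. At chr3:142343706-142344241 the -log10 p was 22.9 and 92.4 in RANKL+I-BET, 25.1 and 11.1 in RANKL and 4.66 in I-BET, with no peak in untreated cells. At chr3:142273248-142273781 it was 21.9 and 32 in RANKL+I-BET, 23.1 and 5.77 in RANKL and 7.53 in I-BET, again with none in untreated cells. The region over the start, chr3:142393655-142396537, was called in all 7 libraries.

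**Figure D2:**
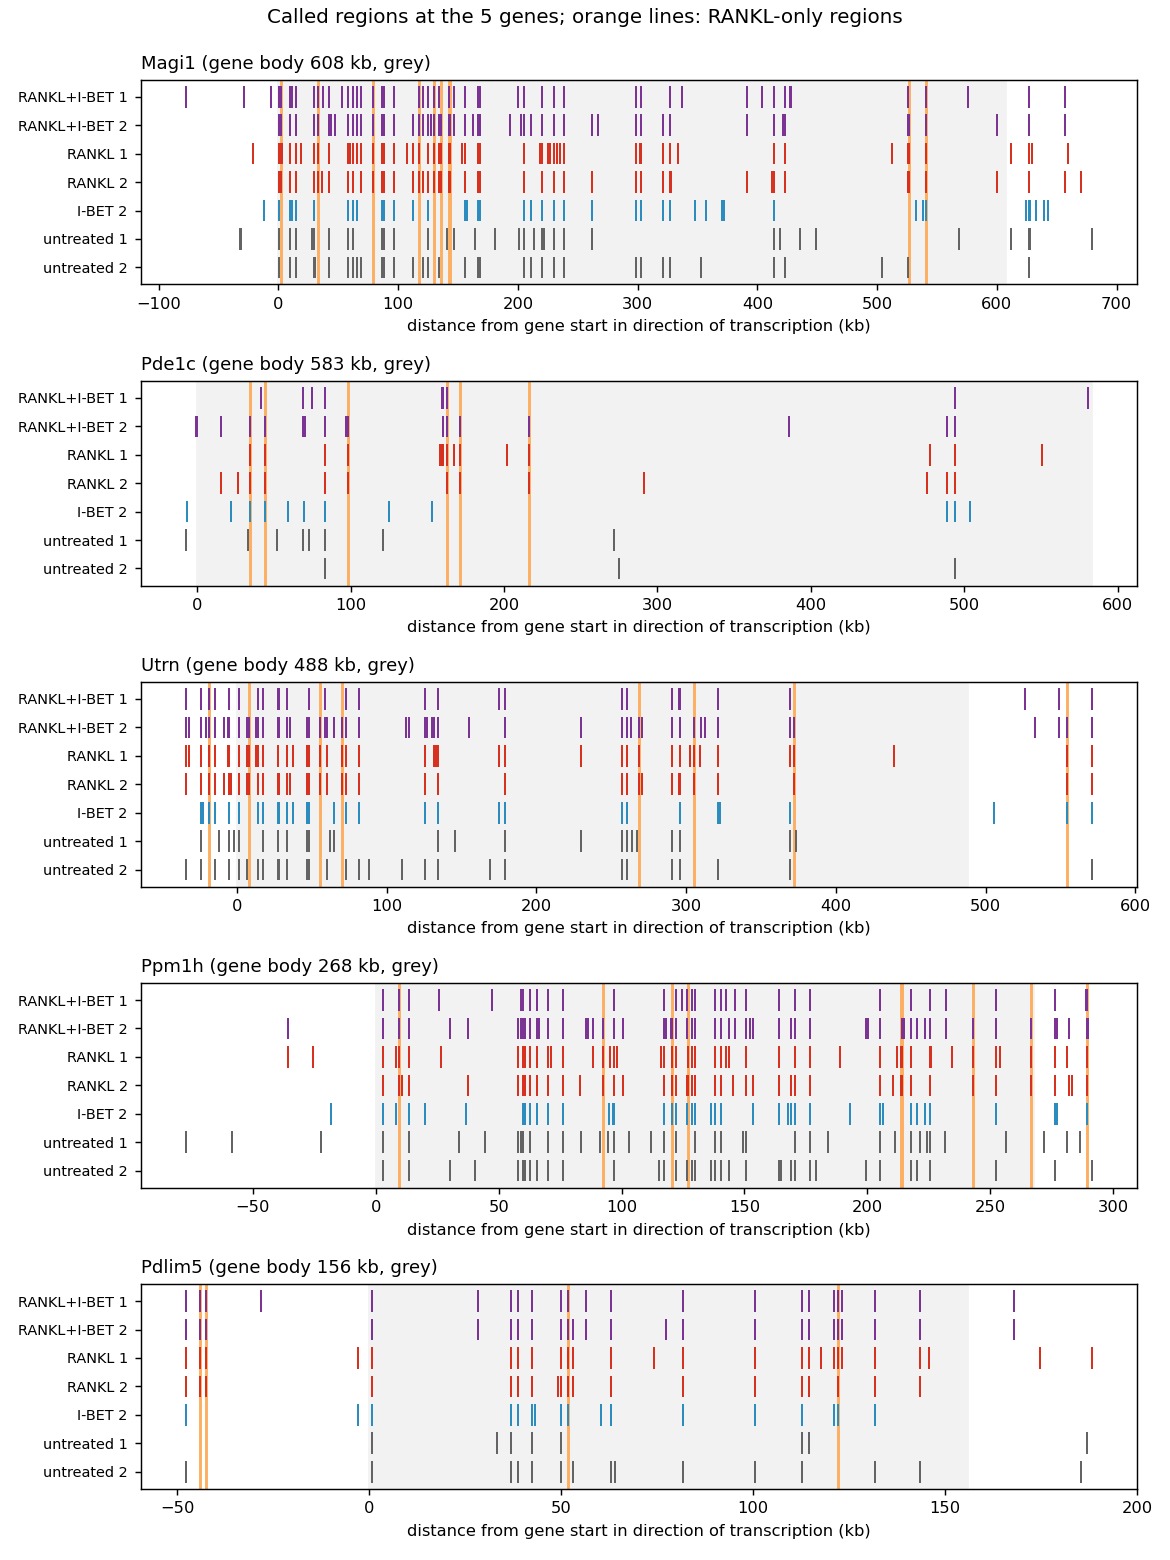
Regions called in each library along each gene, by distance from the gene start in the direction of transcription (x axis, kb); each row is 1 library, grey is the gene body and orange lines are RANKL-only regions. The 6 regions of the Magi1 cluster stand between 78.8 and 144 kb, the 6 of Pde1c stand before 216 kb, and 5 of the 9 of Ppm1h stand between 214 and 289 kb.

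The RANKL-only regions of the 5 genes resembled RANKL-only regions elsewhere in shape. Their median length was 514 bp, against 510 bp over all 8594. The summits of the 2 RANKL libraries were a median 49 bp apart at the 5 genes, within 150 bp at 27 of 37 (73%), against 81 bp and 67% over all. Their distance to the nearest region called in all 7 libraries had a median of 9.39 kb, against 11.3 kb over all, with the gene medians from 3.78 kb at Ppm1h to 64.2 kb at Pde1c. Regions called in all 7 libraries were themselves a median 7.93 kb apart at Ppm1h, 15 kb at Magi1, 15.8 kb at Utrn and 22 kb at Pdlim5. Pde1c had only 1, and how far the distances follow this spacing was not tested.

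**Figure D3:**
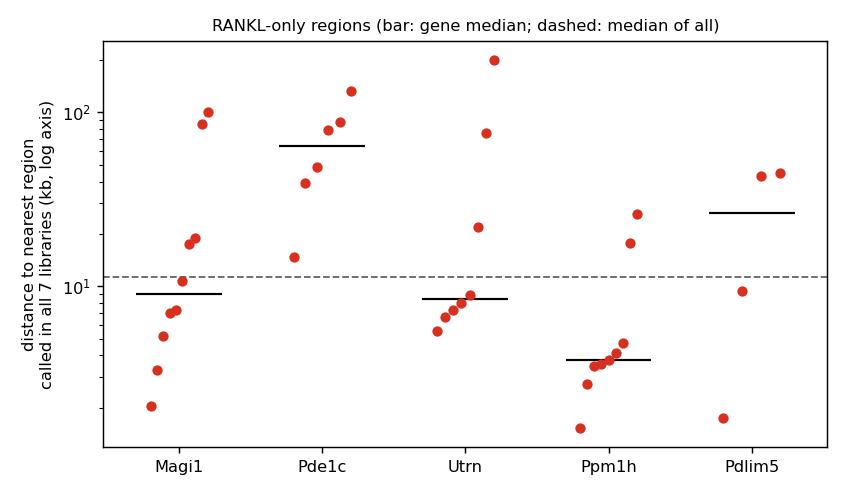
Distance from each RANKL-only region to the nearest region called in all 7 libraries (y axis, kb, log scale), by gene; dots are regions, bars gene medians and the dashed line the median of 11.3 kb over all RANKL-only regions. Ppm1h has the lowest median distance (3.78 kb) and Pde1c the highest (64.2 kb). Regions called in all 7 libraries are also most closely spaced at Ppm1h (median gap 7.93 kb), and Pde1c has only 1.

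Regions called in all 7 libraries made up 16 of 125 at Magi1, 1 of 44 at Pde1c, 12 of 79 at Utrn, 17 of 117 at Ppm1h and 5 of 38 at Pdlim5. Together they were 51 of 403 (12.7%), close to the 12.5% of all regions. At the other end, 215 of 403 (53.3%) were called in 1 library alone, beside 55.6% of all regions, and 50 of these belonged to untreated replicate 1. Another 25 regions were called in every library but untreated replicate 1, which 3.98% of all regions are.

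The next question is how many RANKL-only regions were also called when I-BET was given with RANKL. The RANKL+I-BET libraries were not used to choose the genes. Of the 37 regions, 14 (37.8%, exact 95% interval 22.5% to 55.2%, counting error only) had calls in both RANKL+I-BET libraries, beside 37.4% of all RANKL-only regions. The genes ranged widely around this: 4 of 4 at Pdlim5, 6 of 10 at Magi1, 2 of 9 at Ppm1h, 1 of 6 at Pde1c and 1 of 8 at Utrn. The single-gene intervals are wide and all overlap, from 39.8% to 100% at Pdlim5 and from 0.316% to 52.7% at Utrn, and the difference between genes was not tested. The RANKL+I-BET libraries themselves differed. Replicate 1, with a background pileup of 3.92, called 14 of 37 (39.9% of all RANKL-only regions), and replicate 2, with 13.8, called 34 of 37 (85.2% of all). The 14 became 34 without RANKL+I-BET replicate 1, and 45 of the larger RANKL-only class without untreated replicate 2.

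**Figure D4:**
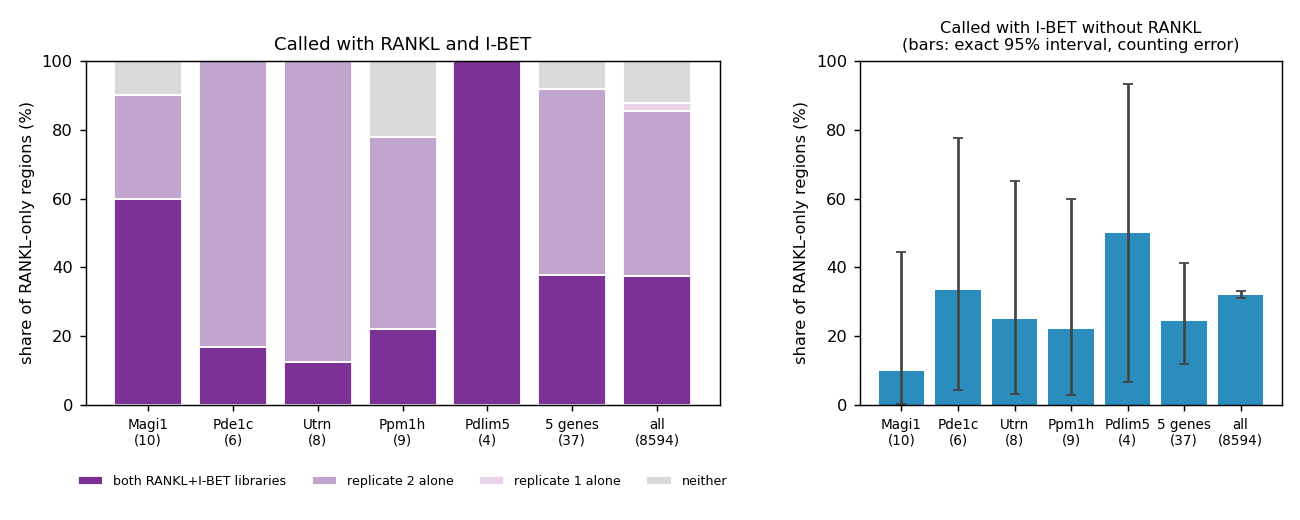
Share of each gene's RANKL-only regions (y axis, %; numbers of regions in brackets) called in both RANKL+I-BET libraries, in 1 or in neither (left), and in the I-BET library without RANKL (right, with exact 95% intervals). At Pdlim5 all 4 had calls in both RANKL+I-BET libraries, and at Utrn 7 of 8 were called in replicate 2 alone.

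Only 3 of the 37 were called in neither RANKL+I-BET library, beside 12.3% of all RANKL-only regions. They were chr6:94148358-94148634 at Magi1 and chr10:122804469-122804741 and chr10:122890899-122891162 at Ppm1h. They were also the 3 shortest of the 37, from 264 to 277 bp, with -log10 p between 2.9 and 4.56 in the RANKL libraries. A region spans the merged peaks of all lists, so one without RANKL+I-BET calls has fewer peaks to lengthen it. Their shortness is therefore no separate trait. Judged by RANKL+I-BET replicate 1 alone, all but 14 of the 37 were uncalled. With I-BET and no RANKL, 9 of the 37 were called (24.3%, 11.8% to 41.2%), beside 32.1% of all. These were 1 at Magi1 and 2 at each of the other 4 genes, and 5 of the 9 were among those called in both RANKL+I-BET libraries. The count was 14 without RANKL replicate 2 and 37 without untreated replicate 2, which change the set of RANKL-only regions.

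**Figure D5:**
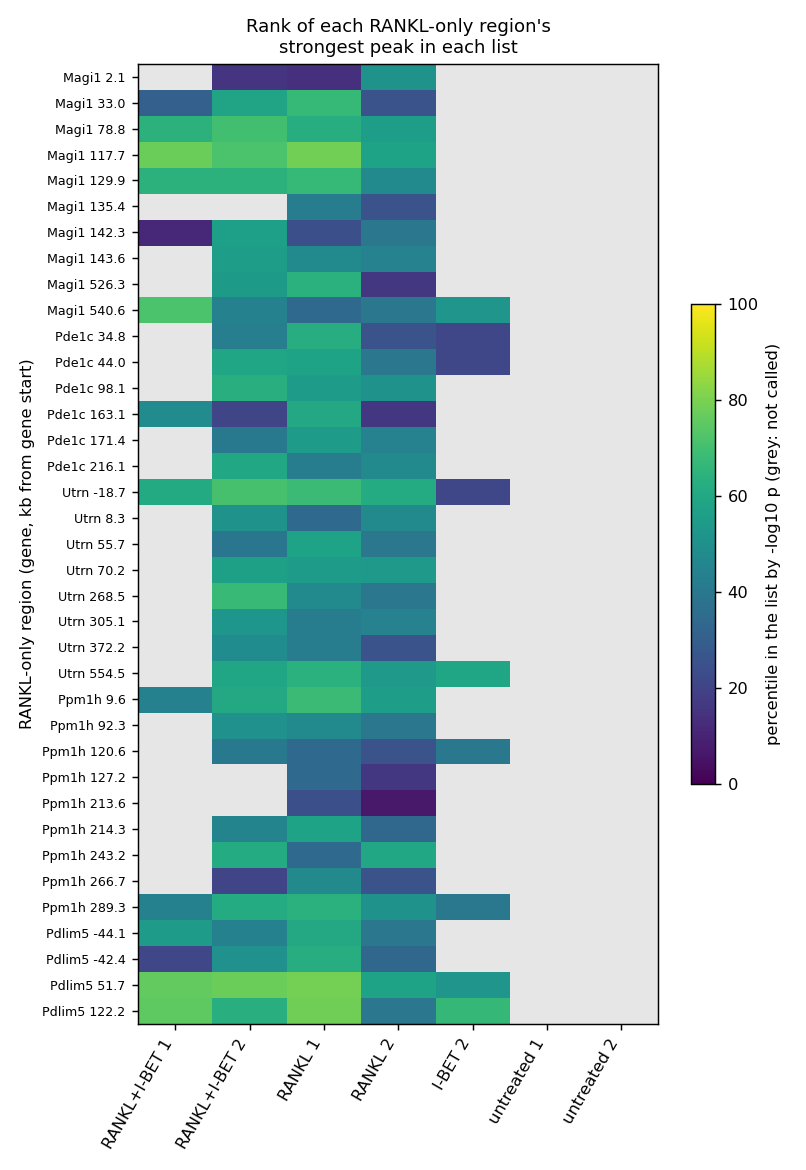
Percentile within each list, by -log10 p, of the strongest peak in each of the 37 RANKL-only regions (rows, with the distance from the gene start in kb); grey means not called. The untreated columns are grey by definition, the RANKL+I-BET replicate 2 column is filled for 34 of 37 rows and the replicate 1 column for 14.

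Set directly against RANKL, RANKL+I-BET had 9 of 303 regions that both of its libraries and neither RANKL library called (1.86% of all such regions). Magi1 had 0, Pde1c 1, Utrn 2, Ppm1h 3 and Pdlim5 3. They ran from 233 to 724 bp, and 7 of the 9 were called in no further library, while the other 2 were also called in untreated replicate 1. The reverse class held 3 of 303 (0.571%), the same 3 short regions as above. Leaving out RANKL+I-BET replicate 1 gave 52 regions, RANKL+I-BET replicate 2 33, and either RANKL replicate 14, where the main count is 9. The reverse class was 31, 18 and 49 without RANKL+I-BET replicate 2, RANKL replicate 1 and RANKL replicate 2. The direction between the groups turned with the number: within number 1, 39 regions were called in RANKL+I-BET alone and 85 in RANKL alone, and within number 2, 65 and 19. Over all regions the counts were 33224 and 63128 within number 1, and 60307 and 17900 within number 2.

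RANKL+I-BET against untreated cells gave 26 of 305 regions that both RANKL+I-BET and neither untreated library called (3.73% of all such regions). These were 8 at Magi1, 2 at Pde1c, 3 at Utrn, 4 at Ppm1h and 9 at Pdlim5. Leaving out untreated replicate 1 gave 29, untreated replicate 2 61, RANKL+I-BET replicate 1 101 and RANKL+I-BET replicate 2 53. By definition 14 of the 26 are RANKL-only regions, and 12 are not. At Pdlim5, 5 of the 9 were outside the RANKL-only class, and 2 of these 5 had a peak in RANKL replicate 1. The reverse class held 0 of 305 (0.458%), and 15 without untreated replicate 1, 51 without untreated replicate 2 and 2 without RANKL+I-BET replicate 2. Within number 1, 88 regions of the 5 genes were called in RANKL+I-BET and not in untreated and 56 the other way round, and within number 2, 107 and 15. Over all regions the counts were 54820 and 70049 within number 1, the opposite direction, and 71108 and 13361 within number 2. This contrast shares the untreated libraries with RANKL against untreated, so the 2 are not independent.

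I-BET without RANKL had 54 of 231 regions that no untreated library called, beside 21.4% of all such regions. By gene these were 15 at Magi1, 10 at Pde1c, 8 at Utrn, 15 at Ppm1h and 6 at Pdlim5. The reverse class, in both untreated libraries and not in I-BET, held 4 regions (2.38% of all), 1 at Magi1, 1 at Utrn and 2 at Ppm1h. Without untreated replicate 1 the counts were 55 and 32, and without untreated replicate 2 they were 88 and 61. With 1 I-BET library there is no replicate of these values.

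Relatives and partners of the 5 products were counted by lists, without the 5 genes themselves, to be read beside the 23.7% of all genes and 62.8% of genes as long as Pdlim5 that had a RANKL-only region. Of 16 MAGI scaffold and junction genes, 8 (50%) had one, among them the synaptic scaffold gene Dlg2 with 6, and Magi3 and Rapgef2, a Rap exchange factor gene, with 2 each. Of 18 cyclic nucleotide phosphodiesterase genes 13 (72.2%) had one, among them the cyclic AMP enzymes Pde4d with 6 and Pde4b with 2, the dual enzyme Pde10a with 4 and Pde3a with 2. Of 17 genes of the dystrophin and utrophin complex 8 (47.1%) had one, and the dystrobrevin gene Dtnb had 2. Of 16 PPM phosphatase genes 6 (37.5%) had one, Phlpp1 with 4, Ppm1l with 3 and Pptc7 with 2. Of 10 PDZ and LIM genes 5 (50%) had one, Lmo7 with 3 and Limch1 with 2. RANKL-only regions of these lists numbered 16, 26, 9, 12 and 8 in that order, and untreated-only ones 5, 8, 3, 1 and 3, of 792, 877, 366, 322 and 271 regions. The relation of these counts to gene length was not tested. Dlg2 spans 1970 kb and Pde4d 1300 kb, and Magi2, the paralogue of Magi1, had 0 RANKL-only regions among 108 in 1490 kb. Of the longest genes of the utrophin list, Sgcd (1020 kb) and Sntg1 (942 kb) had 0, Sgcz (1140 kb) had 1, and Dmd, the dystrophin gene, had 1 region in 2390 kb, not RANKL-only. These 5 were named after their values were seen.

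Genes with the most similar counts over the 7 libraries were found by Pearson correlation of log2 regions per 100000 list peaks among 5127 genes with at least 20 regions. Libraries share depth and list length in every gene, so these are descriptions without a p. For Magi1 they included Arhgap18 (0.948) and Arhgef38 (0.94). For Pde1c they were Il12rb2 (0.936), Snap91 (0.92) and Mtx3 (0.905), and for Utrn Lekr1 (0.962), Il33 (0.96) and Phf3 (0.957). For Ppm1h they were Fam241b (0.979), Clic6 (0.949) and Impdh1 (0.947), and for Pdlim5 Rock2 (0.988), Hebp1 (0.981) and Rnf217 (0.979). Among the 5 genes the highest value was 0.897 between Magi1 and Pdlim5, then 0.809 between Utrn and Ppm1h, and the lowest was 0.12 between Magi1 and Ppm1h.

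The 100 kb limit left out 8 regions of Magi1, 9 of Utrn and 4 of Ppm1h that lay up to 200 kb away. It left out 0 at Pde1c and Pdlim5. The farthest member outside a gene lay 77.4 kb from Magi1, 7.35 kb from Pde1c, 83.1 kb from Utrn, 77.3 kb from Ppm1h and 47.8 kb from Pdlim5. The nearest regions beyond the limit lay 104 kb from Magi1, 132 kb from Utrn and 101 kb from Ppm1h, with 1 RANKL-only region of Utrn between 100 and 200 kb.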

How the data were processed

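The authors deposited 1 MACS2 peak list for each library, so replicates were not pooled. MACS2, Bowtie2, SAMtools, bedtools, Picard, cutadapt and FastQC were named, with build mm10, per the submitters' processing notes; versions and settings are not given in the sources used here. Each deposited line has a score, a fold (ratio over local background), a -log10 p and a -log10 q, all the authors' own and used only within 1 list; the lowest deposited -log10 p was 2.008.

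Peaks of the 7 lists that overlapped or touched were merged into 344401 regions, called in a library at 1 bp of overlap, and assigned to the nearest of 21887 RefSeq genes (GRCm38.p6) within 100 kb. A change of height inside a shared region was therefore not measured. Strands came from the RefSeq promoter table. Counts of regions were compared without tests, since 2 libraries face 2 at most, and the steps were tested on simulated data. Intervals are Clopper-Pearson, 95%, and cover counting error only. Python 3.11.15, numpy 2.4.6, pandas 2.3.3, scipy 1.17.1 and matplotlib 3.10.9 were used.

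The 5 genes, the lists and the motifs were chosen with earlier results of these data known. Positions named were, per gene, the 2 RANKL-only regions with the largest smaller -log10 p of both RANKL libraries and the highest-ranked region of all 7 libraries. Other positions, namely those at gene starts, the clusters at Magi1, Utrn and Ppm1h and the 3 regions absent from RANKL+I-BET, were chosen after their values were seen. Genes named as alike were the 3 with the highest correlation, and list genes those with at least 2 RANKL-only regions, at most 4 a list; a few that meet these rules are not reported here. Alternatives were a stricter -log10 q (5 or more), lists shortened to their 117175 best peaks, 50% cover, gene bodies alone, regions rebuilt from summits within 150 bp, the replicate block, and leaving out each library, which for RANKL+I-BET or I-BET against untreated was added after seeing the data. A first I-BET replicate was not analysed here.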

Additional observations from a re-analysis of the deposited data

How the results depend on the processing

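Keeping only peaks whose -log10 q was 5 or more left 14 RANKL-only regions in place of 37, of which 2 were called in the I-BET library and 7 in both RANKL+I-BET libraries. Their share of the RANKL-only, untreated-only and mixed regions was 45.2% in place of 80.4%. This share also draws on the contrast that chose the genes. Without the stricter q, these classes held 8594, 1910 and 21639 of all regions, in that order. With the stricter q, RANKL+I-BET-only regions against RANKL were 2 in place of 9, and the reverse 0 in place of 3. Regions of all 7 libraries were 28 in place of 51. Lists of equal length gave 1 untreated-only region in place of 0 and 3 RANKL+I-BET-only regions. Requiring 50% cover gave 5 regions of RANKL without RANKL+I-BET, 26 regions of all 7 and 9 RANKL-only regions kept in both RANKL+I-BET lists. Regions rebuilt from summits gave 3 untreated-only, 15 of RANKL without RANKL+I-BET, 8 kept and 28 of all 7. The cause of these moves was not tested, apart from fewer peaks entering under the stricter q and fewer calls under more cover. Gene bodies alone moved none of these 8 counts and shares by over 1.5 times. Of the values per gene and library, 24 of 35 peak counts and 19 of 31 median gaps moved by over 1.5 times with the stricter q, 1 of 35 and 6 of 35 with lists of equal length, and 0 of 35 and 1 of 35 with gene bodies alone.

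Leaving out 1 library gave 38 to 94 RANKL-only regions, 0 to 54 untreated-only, 14 to 52 RANKL+I-BET-only against RANKL, 3 to 49 of the reverse, 14 to 45 kept in both RANKL+I-BET libraries, 9 to 37 called in I-BET, and 51 to 76 in every remaining library. Added after the data were seen, the same for contrasts with untreated cells gave 29 to 101 RANKL+I-BET-only regions in place of 26, 0 to 51 of the reverse in place of 0, 55 to 88 I-BET-only in place of 54 and 32 to 61 of the reverse in place of 4. The share ran from 56.1% to 69.1%. With a replicate block, which keeps only mixed regions with 1 call in each numbered pair, the share was 92.5%. The numbers were not taken to pair the libraries. With 2 pairs per contrast, the values correlated over regions were the deviations of replicates within their group, not the libraries themselves. For same-numbered replicates the correlation was 0.066 for RANKL against untreated, 0.16 for RANKL+I-BET against RANKL and 0.18 for RANKL+I-BET against untreated. Read depth is unknown, so an uncalled region is one not detected in that list, not one shown to be closed.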
